A study of Mus musculus with 8 samples.

Results

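The genes described here mark the cells of brain blood vessels. They are 40 of the 37074 gene names on the array, chosen by name: 9 of endothelial identity and cell junctions, 5 endothelial receptors, 8 barrier transporters and lipid handling genes, the inducible enzyme gene Nos2, 5 pericyte genes, 5 smooth muscle genes, 5 fibroblast genes and 2 collagen genes of the basement membrane. A probe was taken when the array's own annotation gave it 1 of these 40 symbols, and 67 of the 56605 probes were found in this way, with 14 genes having several probes. The cortex and striatum of 4 males each of BTBR/R (strain BTBRTF/ArtRbrc) and B6 (strain C57BL/6J) gave the RNA, 1 mouse per array. BTBR/R is an inbred subline of the BTBR mouse, and B6 is the strain it was compared with. No mouse was treated, and their age was 4 months, or 6 months for BTBR/R replicate 1. With 1 mouse per array, the p-values set the difference between strains against the spread between arrays of a strain, each from another mouse.

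Endothelial cells line the vessel wall, and in the brain they form the blood-brain barrier: tight junctions seal the gaps between them, carriers bring in glucose, hormones and lipids, and efflux pumps return foreign molecules to the blood. Pericytes sit on the outside of capillaries within the basement membrane, smooth muscle cells wrap arteries and arterioles, and fibroblasts lie around larger vessels and in the meninges. In RNA from dissected tissue, fewer cells of a type cannot be told apart from less RNA per cell.

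The values given are scaled signals, which are log2 processed intensities minus the 75th percentile of the same array, so that 0 is a bright gene's level and each unit is a doubling. Differences are BTBR/R minus B6 on this log2 scale, and adjusted p-values are from limma, by the Benjamini-Hochberg method across all 56605 probes. Detection on an array means that the scanner software marked the probe as well above background. The dimmest detected signal lay at a scaled -5.28 to -4.98 on the B6 arrays and at -3.97 to -3.55 on the BTBR/R arrays, so dim probes were detected more readily in B6. All 8 arrays lay on 1 slide, with B6 in slide column 1 and BTBR/R in slide column 2, and these cannot be told apart from the strains. For 37 of the 40 genes the brightest probe was detected on all 8 arrays. The exceptions were the tight junction gene Ocln and the smooth muscle genes Cnn1 and Des.

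The probes on which the results turn are shown here as the array annotation gives them, in lower case and 5′ to 3′, whole or as their leading 30 bases. They are the opposed pair of Slco1c1, the probes of the receptor and of the tight junction gene with the largest falls in the main scaling, and the pair of Ly6c1 that fell together.
Slco1c1 junction probe, A_51_P261713, chr6:141511731-141513094 (mm9): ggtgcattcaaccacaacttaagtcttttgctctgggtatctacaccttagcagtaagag
Slco1c1 end probe, A_55_P2094831, chr6:141518164-141518223 (mm9), leading 30 bases: gcctgctttgcttttgactctaagcataac
Tie1, A_51_P177171, chr4:118144132-118144191 (mm9): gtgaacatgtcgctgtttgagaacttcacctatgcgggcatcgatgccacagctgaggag
Cldn5, A_51_P189814, chr16:18778046-18778105 (mm9), leading 30 bases: tcctactgagatcctgggggcactagatgc
Ly6c1, A_55_P1961499, chr15:74877785-74877844 (mm9): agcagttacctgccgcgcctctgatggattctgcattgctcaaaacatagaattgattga
Ly6c1, A_55_P2064771, chr15:74875495-74875554 (mm9), leading 30 bases: tattatagtatcaccatccacacataagta
The 60 bases of the junction probe are spread over a longer stretch of the genome, so they cross a splice junction, while the other probes each match 1 unbroken stretch.

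Several endothelial genes were modestly lower in BTBR/R mice, while the pericyte, fibroblast and basement membrane genes did not pass the test by any probe detected on all 8 arrays. Among the 44 vascular probes detected on all 8 arrays, 13 had an adjusted p below 0.05 by limma, which is 29.5% of them against 26.9% of all probes detected on all 8 arrays. Of these, 11 were lower in BTBR/R (25.0%, against 13.9% of all such probes) and 2 were higher (4.55%, against 13%). The list was drawn up with earlier results of these data known, so these shares are a description with no test. With 1 probe per gene, the brightest, 9 genes were lower, 2 were higher and 26 did not pass, which makes 11 of 37 against a background of 28.4%. One of the 2 higher genes was Slco1c1, whose other probe fell, and with that probe 10 genes were lower and 1 was higher. The strains did not overlap for 15 of the 44 probes (34.1%, against 32.6% of all such probes). The share of vascular probes that passed was therefore near the background. The median difference over the 44 probes was -0.11, and that over all probes detected on all 8 arrays was 0.0015. When arrays were scaled by the spike-in probes instead, the median of all such probes rose by 0.11, and 6 vascular probes were lower and 6 higher. The probes that then became higher were those of Mfsd2a, Notch3, Col4a1 and Col4a2, so that a pericyte gene and both basement membrane genes passed, and those of Ly6a, Eng, Abcg2 and Tagln and the brighter probe of Ly6c1 no longer did.

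None of the 44 probes changed 2-fold or more with an adjusted p below 0.05, where 2.2% of all probes detected on all 8 arrays did. Over all 67 vascular probes, whatever their detection, 5 passed both thresholds (7.46%), against 22.4% of all 56605 probes. Of these 5, 4 were higher in BTBR/R (against 20.2% of all probes) and were detected on no array, namely 1 probe each of Kdr and Col1a2 and 2 of Col3a1. Of all probes detected on no array, 67.7% were called higher in BTBR/R. The fifth was a dim probe of Abcb1a, described with the transporters, which was lower (against 2.27% of all probes). The plot of both strain means against the detection limits shows the 4 higher probes below the limits of both strains, and the Abcb1a probe above those of B6 alone.

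**Figure D1:**
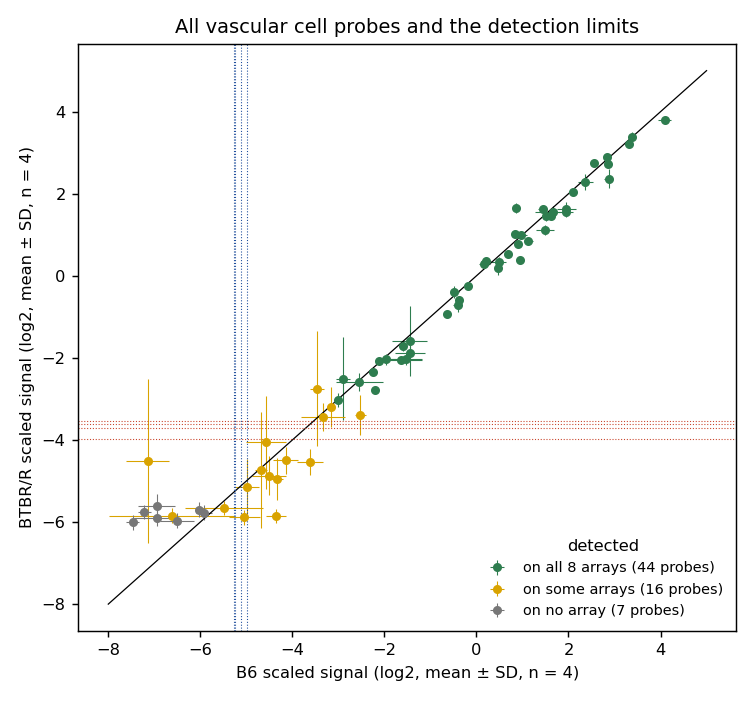
Mean scaled signal (log2) of each of the 67 vascular probes in BTBR/R against B6, with SDs over 4 mice, coloured by detection: 44 probes on all 8 arrays, 16 on some and 7 on none. The diagonal marks equal signal and the dotted lines mark the detection limit of each array, and the 7 probes on no array lie below the limits and above the diagonal.

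Of the 4 red blood cell genes with a brightest probe detected on all 8 arrays, 3 were lower in BTBR/R, against 14.5% of all genes measured in this way. The fourth, Hbb-b1, did not pass (adjusted p = 0.0706 by limma). The mean scaled signal of the list (Hba-a1, Hbb-b1, Hbb-bt, Alas2 and Slc4a1, of which 4 were detected on all 8 arrays) was 1.19, 2.68, 1.91 and 0.86 in B6 replicates 1 to 4, and 0.60, 0.35, 0.44 and 0.34 in BTBR/R replicates 1 to 4. Every B6 mouse was above every BTBR/R mouse, and B6 replicates 2 and 3 held the most. Without those 2 mice, chosen after the values were seen, 4 vascular probes in place of 13 had an adjusted p below 0.05 (3 lower and 1 higher), and the median difference was -0.07, with 2 B6 mice left in the fit. The 4 were Tie1, Eng and both probes of Slco1c1. Leaving out BTBR/R replicate 4 alone left 8 probes (7 lower and 1 higher). The part of blood content in the vascular differences was not tested.

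**Figure D2:**
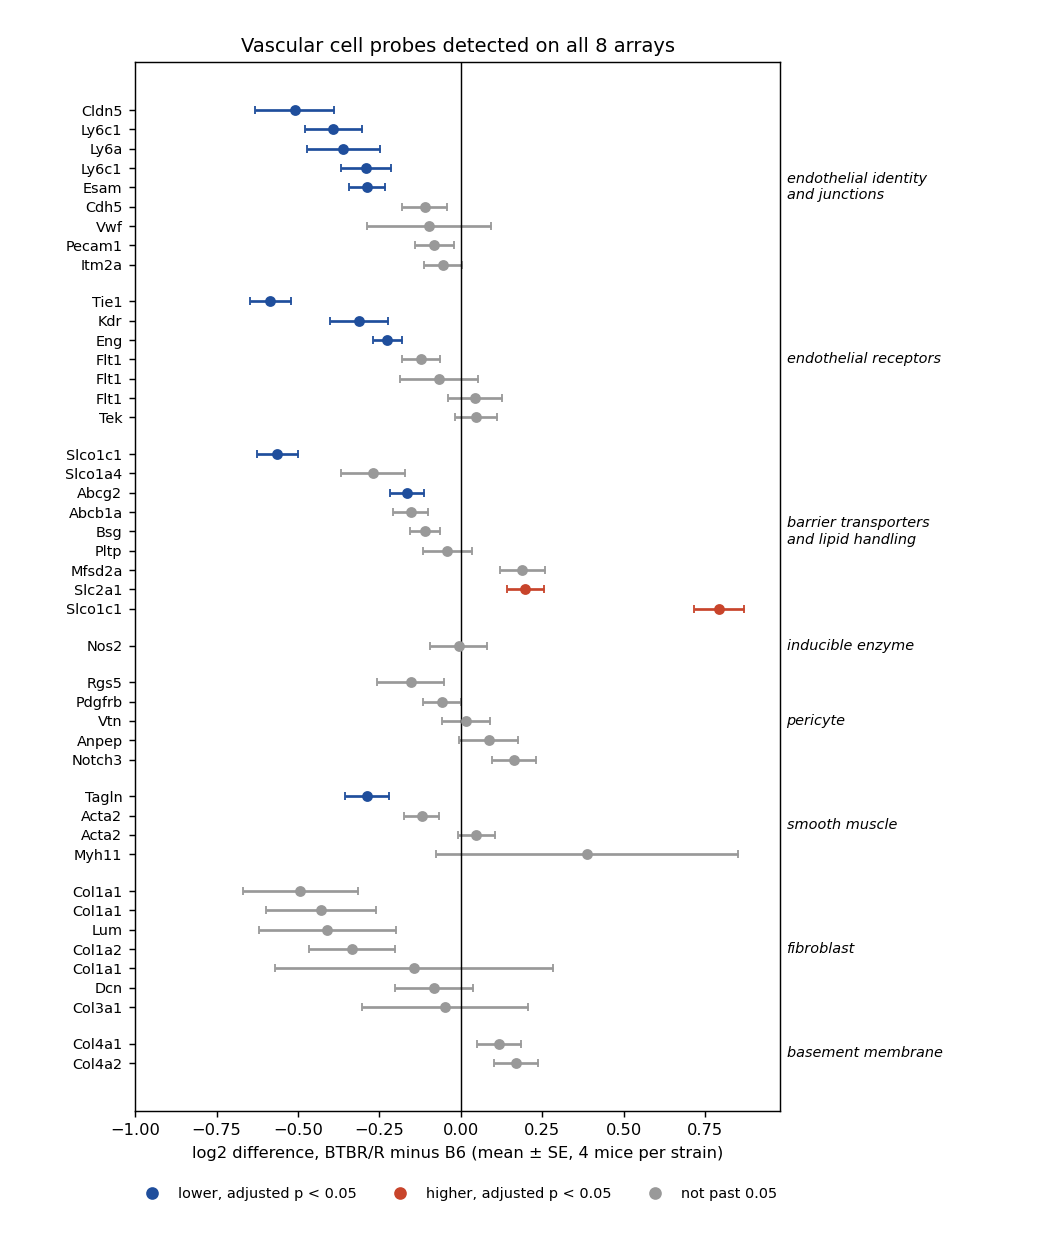
Difference in scaled signal (log2, BTBR/R minus B6) with its standard error for the 44 vascular probes detected on all 8 arrays, in rows by gene and class. The 11 lower probes with an adjusted p below 0.05 are mostly endothelial, Slco1c1 appears at -0.56 and at 0.79, and no pericyte, fibroblast or basement membrane probe passed.

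Of the 8 identity and junction genes measured by a brightest probe detected on all 8 arrays, 4 were lower (Cldn5, Esam, Ly6a and Ly6c1) and 4 did not pass, and the median difference over the 9 such probes of the class, 2 of them of Ly6c1, was -0.29. By brightest probe of each gene the median was -0.20, and -0.09 with spike-in scaling, and over all genes measured in this way 14.5% were lower. Cldn5, the main claudin of brain endothelial tight junctions, had scaled signals of 2.99, 2.92, 2.76 and 2.83 in B6 replicates 1 to 4 and of 2.17, 2.61, 2.52 and 2.16 in BTBR/R replicates 1 to 4. The strains did not overlap, and BTBR/R replicates 1 and 4 were the lowest. The mean was 2.87 ± 0.10 in B6 and 2.36 ± 0.23 in BTBR/R (SD, n = 4 each), a fall of 0.51 on the log2 scale (SE 0.12) or 1.42-fold, with an adjusted p of 0.0129 by limma. Without B6 replicates 2 and 3 the difference was -0.55 with an adjusted p of 0.0647. Esam, an adhesion molecule of the same junctions, was lower by -0.29 (SE 0.05, adjusted p = 0.00444 by limma), again without overlap. Its values were -0.76 to -0.58 in B6 and -0.98 to -0.88 in BTBR/R.

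Pecam1, the adhesion molecule CD31 by which endothelium is often identified, had scaled signals of -2.29, -2.31, -2.25 and -2.18 in B6 and of -2.39, -2.29, -2.43 and -2.25 in BTBR/R. The strains overlapped, and the difference of -0.08 (SE 0.06) had an adjusted p of 0.318 by limma. Cdh5, the cadherin of endothelial adherens junctions, differed by -0.11 (adjusted p = 0.251), and Itm2a, a membrane protein abundant in brain endothelium, by -0.06 (adjusted p = 0.497). These 3 genes did not pass the test, while Esam, of the same class, did. Their expression, together with that of Flt1, Tek and Vwf, showed the endothelium that the list stands for on every array.

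The Ly6 genes encode small lipid-anchored surface proteins, and Ly6c1 and Ly6a are abundant on mouse brain endothelium. The brighter Ly6c1 probe, whose signal was the highest of all vascular probes, read 4.01, 4.28, 4.08 and 3.98 in B6 and 3.75, 3.78, 3.89 and 3.77 in BTBR/R. The strains did not overlap, and the difference was -0.29 (adjusted p = 0.020 by limma, and 0.0504 without BTBR/R replicate 4). The dimmer Ly6c1 probe, at 1.75 to 2.13 in B6 and 1.47 to 1.66 in BTBR/R, differed by -0.39 (adjusted p = 0.0103 by limma), so that both probes of the gene fell. Ly6a read 1.29, 1.75, 1.49 and 1.40 in B6 and 1.02, 1.08, 1.31 and 1.08 in BTBR/R, with 1 BTBR/R mouse above the lowest B6 mouse, and differed by -0.36 (adjusted p = 0.0371 by limma). For Ly6a and both Ly6c1 probes, B6 replicate 2 was the highest mouse and replicate 3 the second highest, the same 2 mice that held the most red blood cell signal. The call of Ly6a was also lost when any 1 of 6 mice was left out (all but B6 replicate 1 and BTBR/R replicate 3), with adjusted p-values of 0.0548 to 0.084, and with spike-in scaling (0.13), a floor at the detection limit (0.104) and the methods' t-test (0.0538). Without B6 replicates 2 and 3 the difference of Ly6a was -0.22 with an adjusted p of 0.179, and those of Ly6c1 were -0.20 and -0.27, with adjusted p-values of 0.0903 and 0.0654.

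Vwf, the clotting factor that endothelial cells store and release, showed the same 2 mice apart from the rest. It read 1.45, 2.01, 1.97 and 1.23 in B6 and 1.46, 1.55, 1.78 and 1.48 in BTBR/R, and its difference of -0.10 (adjusted p = 0.723 by limma) was well within the B6 SD of 0.39. Ocln, another tight junction protein, was the gene of this class with the least even values. It was at -3.66 to -3.31 in B6, but at -3.74, -1.26, -4.13 and -1.85 in BTBR/R replicates 1 to 4, so that replicates 2 and 4 stood about 2 units above the others, and only 3 of those arrays detected it. Its adjusted p was 0.423.

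**Figure D3:**
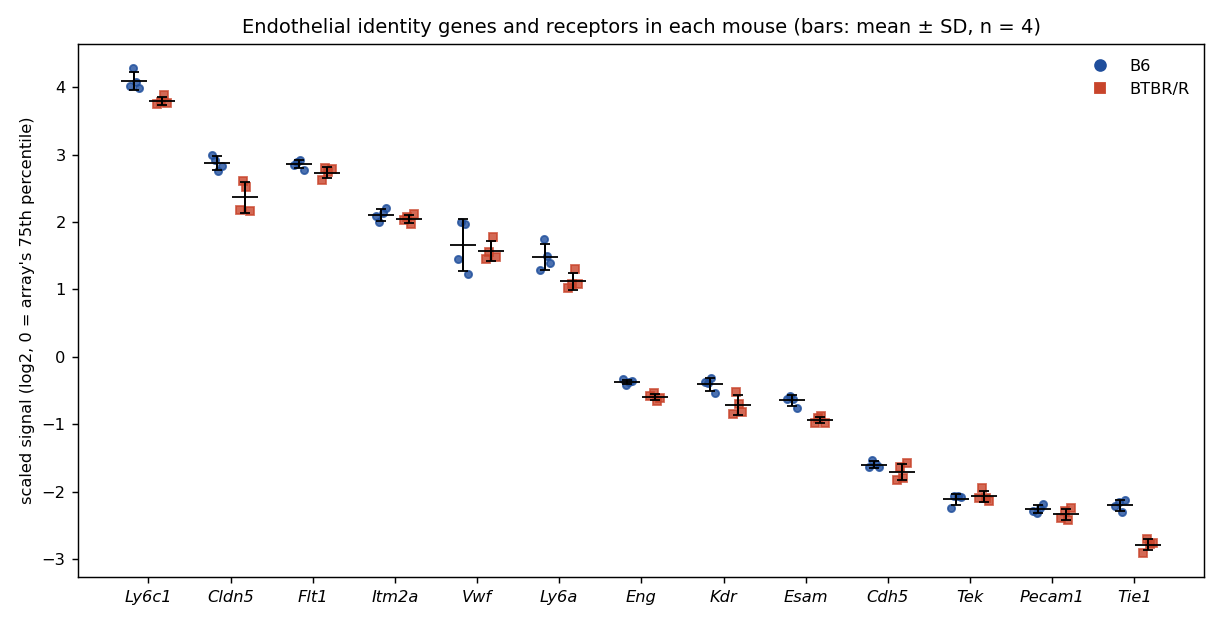
Scaled signal (log2) of 13 endothelial identity and receptor genes, by brightest probe, in each of 4 B6 mice (circles) and 4 BTBR/R mice (squares), with mean and SD. The strains are apart for Ly6c1, Cldn5, Eng, Esam and Tie1 and overlap for Flt1, Itm2a, Vwf, Cdh5, Tek and Pecam1, while Ly6a and Kdr passed the test with 1 mouse in the other strain's range.

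Of the 5 receptors of endothelial growth and maturation, 3 were lower (Tie1, Kdr and Eng) and 2 did not pass, with a median difference of -0.12 over 7 probes, 3 of them of Flt1. By brightest probe the median was -0.23, and -0.11 with spike-in scaling, against the same 14.5% of genes lower. Tie1, the orphan partner of the angiopoietin receptor Tek, had the largest fall of any vascular probe detected on all 8 arrays in the main scaling. It read -2.22, -2.16, -2.30 and -2.13 in B6 and -2.91, -2.71, -2.78 and -2.76 in BTBR/R. Every BTBR/R mouse was below every B6 mouse, with means of -2.20 ± 0.08 and -2.79 ± 0.08 (SD, n = 4 each). The fall of 0.59 (SE 0.06) was 1.5-fold, with an adjusted p of 0.000203 by limma. With normexp background correction it was -0.26 with an adjusted p of 0.00352, smaller than the falls of several other such probes. Among these were the Slco1c1 end probe (-0.54), Cldn5 (-0.51), both Ly6c1 probes (-0.43 and -0.30), Ly6a (-0.37) and the receptor Kdr (-0.33). Tek itself (Tie2) lay between -2.24 and -2.06 in B6 and between -2.13 and -1.95 in BTBR/R, a difference of 0.05 with an adjusted p of 0.597. Whether the differences of the 2 partners were themselves different was not tested.

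Kdr (VEGF receptor 2, the main signalling receptor for VEGF) was at -0.38, -0.39, -0.32 and -0.54 in B6 and at -0.85, -0.52, -0.71 and -0.81 in BTBR/R. Only BTBR/R replicate 2 reached into the range of the B6 mice. The difference was -0.31 (adjusted p = 0.0266 by limma), but the adjusted p lay between 0.0542 and 0.0697 when any 1 of 6 mice was left out (all but B6 replicate 4 and BTBR/R replicate 2), and at 0.0703 with a floor at the detection limit. Flt1 (VEGF receptor 1, which also acts as a trap for VEGF) had 3 probes detected on all 8 arrays, with differences of -0.12, 0.04 and -0.07 and adjusted p-values from 0.142 to 0.719. Eng, the co-receptor endoglin of the TGF-beta family, had the smallest spread of the class. It lay between -0.41 and -0.34 in B6 and between -0.65 and -0.54 in BTBR/R, a difference of -0.23 (adjusted p = 0.00568 by limma). With spike-in scaling the difference of Eng was -0.11 with an adjusted p of 0.210. The class as a whole, by the mean of its 5 genes, was at -0.47 to -0.43 in B6 and at -0.76 to -0.58 in BTBR/R, without overlap.

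The promoters of the receptor and the claudin that fell most in the main scaling are shown because both genes moved in one direction and because endothelial promoters often hold sites for ETS factors. The windows are RefSeq's on the build GRCm38.p6, which cover 27 of the 40 genes in 31 windows of 300 bases. The letters searched were AGGAAG, an ETS core with its flanks, on both strands, and matches are in capitals.
Tie1 promoter, chr4:118489800-118490099, minus strand: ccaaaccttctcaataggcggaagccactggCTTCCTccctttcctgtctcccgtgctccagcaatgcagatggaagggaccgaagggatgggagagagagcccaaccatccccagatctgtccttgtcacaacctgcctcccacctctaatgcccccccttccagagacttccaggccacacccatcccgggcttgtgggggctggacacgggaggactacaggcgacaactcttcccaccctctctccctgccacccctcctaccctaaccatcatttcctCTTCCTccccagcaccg
Cldn5 promoter, chr16:18776597-18776896, plus strand: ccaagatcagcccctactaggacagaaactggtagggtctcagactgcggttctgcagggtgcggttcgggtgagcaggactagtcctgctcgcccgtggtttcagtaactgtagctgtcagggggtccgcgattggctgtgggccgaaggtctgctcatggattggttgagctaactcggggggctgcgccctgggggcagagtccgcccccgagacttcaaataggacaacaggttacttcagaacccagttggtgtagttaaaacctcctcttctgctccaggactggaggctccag
The Tie1 window held 2 matches, as did that of Eng, and those of Cldn5 and Kdr held 0. Over the list, 11 of 31 windows (35.5%) held a match, against 35.4% of 32851 windows of that length.

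Of the 8 barrier transporters by brightest probe, 2 were higher (Slc2a1 and Slco1c1), 1 was lower (Abcg2) and 5 did not pass. Over all genes measured in this way, 13.9% were higher and 14.5% lower. The mean of the 8 genes has no settled direction: with Slco1c1 by its junction probe it was 1.51 to 1.58 in B6 and 1.59 to 1.65 in BTBR/R (means differing by 0.05), and with its other probe 1.52 to 1.59 and 1.42 to 1.49 (means differing by -0.11). The other probe of Slco1c1, which is the brighter of its pair in B6, was lower, and with it 1 gene was higher and 2 were lower. Slc2a1, the glucose transporter GLUT1 that feeds the brain, read 2.59, 2.53, 2.52 and 2.55 in B6 and 2.83, 2.71, 2.64 and 2.80 in BTBR/R. The strains did not overlap, and the means were 2.55 ± 0.03 and 2.75 ± 0.09 (SD, n = 4 each). The rise of 0.20 (SE 0.06), or 1.15-fold, had an adjusted p of 0.0269 by limma. The call was lost when any 1 of 5 mice was left out (B6 replicates 2, 3 and 4 and BTBR/R replicates 1 and 4), with adjusted p-values of 0.0579 to 0.069. The rise was 0.18 with an adjusted p of 0.175 without B6 replicates 2 and 3, and 0.17 with an adjusted p of 0.0625 when arrays were scaled by their medians. Mfsd2a, the carrier of lysophospholipids with docosahexaenoic acid, lay 0.19 higher with an adjusted p of 0.0658, just outside the threshold.

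Slco1c1, the thyroxine carrier OATP1C1 of the barrier, gave opposite results at its 2 probes, whose sequences are given above. The junction probe read 0.97, 0.88, 0.77 and 0.82 in B6 and 1.56, 1.82, 1.6 and 1.61 in BTBR/R, so that all BTBR/R mice were above all B6 mice. The rise of 0.79 (SE 0.08), or 1.73-fold, had an adjusted p of 9.4e-05 by limma. The end probe, further downstream in the same gene, read 1.0, 1.0, 0.88 and 0.87 in B6 and 0.28, 0.46, 0.44 and 0.32 in BTBR/R, so that all BTBR/R mice were below all B6 mice. The fall of 0.56 (SE 0.06), or 1.48-fold, had an adjusted p of 0.000235 by limma. Within each array, the junction probe minus the end probe was -0.13 to -0.03 in B6 and 1.17 to 1.36 in BTBR/R. The strains thus differed in this quantity by 1.36, a description with no test, since it follows from the opposed values. No direction for the gene as a whole follows from its 2 probes.

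**Figure D4:**
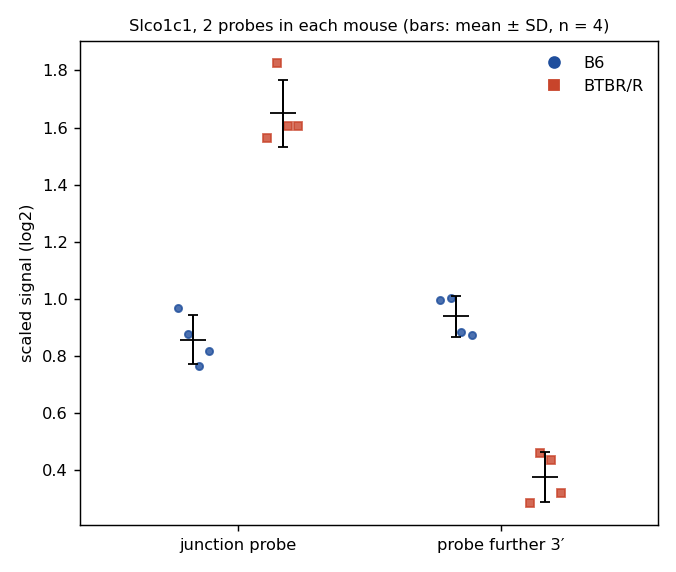
Scaled signal (log2) of the 2 probes of Slco1c1 in each of 4 B6 mice (circles) and 4 BTBR/R mice (squares), with mean and SD. At the junction probe the BTBR/R mice are all above the B6 mice, and at the probe further 3′ they are all below them.

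Of the efflux pumps and the remaining carriers, Abcg2 and a dim probe of Abcb1a passed the test. Abcg2, the pump BCRP, lay between 1.56 and 1.70 in B6 and between 1.37 and 1.5 in BTBR/R, without overlap, a difference of -0.16 (adjusted p = 0.0410 by limma). With spike-in scaling it was -0.05 with an adjusted p of 0.679, and leaving out any 1 mouse other than BTBR/R replicate 1 took its adjusted p past 0.05, to between 0.0516 and 0.0947. Abcb1a, the pump P-glycoprotein, had a bright probe with values of 0.75, 0.67, 0.71 and 0.58 in B6 and 0.59, 0.46, 0.52 and 0.54 in BTBR/R. Its difference of -0.15 (SE 0.05) had an adjusted p of 0.0586, and 1 BTBR/R mouse lay above the lowest B6 mouse. A dim Abcb1a probe at chr5:8733543-8733602 (mm9) read -4.54, -4.27, -4.07 and -4.50 in B6, where all 4 arrays detected it, and -6.10, -5.70, -5.78 and -5.86 in BTBR/R, where none did. Its measured means differed by -1.51 (SE 0.13, adjusted p = 5.2e-05 by limma), but the BTBR/R arrays would not have detected the B6 signal either, and no fold can be stated. With normexp background correction the difference was -0.37 with an adjusted p of 0.00187. Slco1a4 (the organic anion carrier OATP1A4, near Slco1c1 on chromosome 6) differed by -0.27 (adjusted p = 0.0624), with BTBR/R replicate 1 at 0.47 and the other BTBR/R mice at 0.07 to 0.16. Bsg (basigin, a chaperone of monocarboxylate carriers) differed by -0.11 (adjusted p = 0.0952), and Pltp, which transfers phospholipids, by -0.04 (adjusted p = 0.695). Nos2, the inducible nitric oxide synthase, was dim and differed by -0.01, with an adjusted p of 0.959.

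None of the 5 pericyte genes passed the test, and their median difference was 0.02. With spike-in scaling the median was 0.13 and Notch3 was higher, by 0.28 with an adjusted p of 0.0275. Pdgfrb, the receptor by which pericytes are recruited to vessels, read -0.18, -0.13, -0.18 and -0.28 in B6 and -0.26, -0.27, -0.14 and -0.34 in BTBR/R. The strains overlapped, and the difference of -0.06 (SE 0.06) had an adjusted p of 0.481 by limma. The difference was 0.057 with spike-in scaling. Rgs5 (a regulator of G protein signalling) differed by -0.15, Anpep (aminopeptidase N) by 0.09, Vtn (vitronectin) by 0.02 and Notch3 (a Notch receptor of mural cells) by 0.16, with adjusted p-values from 0.0910 for Notch3 to 0.887 for Vtn. The mean of the 5 genes was 0.79 to 0.81 in B6 and 0.75 to 0.88 in BTBR/R.

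Of the smooth muscle genes, 3 had a brightest probe detected on all 8 arrays, and 1 of them was lower, where 14.5% of all genes measured in this way were lower. Acta2, the smooth muscle actin, read 2.74, 2.94, 2.84 and 2.83 in B6 and 2.84, 2.85, 2.93 and 2.93 in BTBR/R by its brightest probe, a difference of 0.05 (SE 0.06) with an adjusted p of 0.543 by limma. Its next probe, also detected on all 8 arrays, differed by -0.12 with an adjusted p of 0.120. Tagln (transgelin, an actin-binding protein) was the one gene of the class whose brightest probe was detected on all 8 arrays and passed. It lay between 1.01 and 1.23 in B6 and between 0.76 and 0.94 in BTBR/R, without overlap, a difference of -0.29 (adjusted p = 0.0118 by limma). Without B6 replicates 2 and 3, the mice with its highest values, the difference was -0.21 with an adjusted p of 0.105.

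The contractile genes Cnn1 and Myh11 were dim. Cnn1 (calponin) at chr9:21913058-21913117 (mm9) read -2.46, -2.38, -2.61 and -2.64 in B6 and -3.90, -3.20, -2.79 and -3.62 in BTBR/R, where 2 of the 4 arrays detected it. The strains did not overlap, and the measured difference of -0.86 (SE 0.23), or 1.81-fold, had an adjusted p of 0.0220 by limma, which was 0.127 without B6 replicates 2 and 3 and 0.0533 to 0.0583 without B6 replicate 1, B6 replicate 2 or BTBR/R replicate 4. With normexp background correction the difference was -0.40 with an adjusted p of 0.0275. Myh11 (smooth muscle myosin) had 4 probes that did not move together. The dim one at chr16:14249625-14249684 (mm9) read -3.48, -3.89, -3.28 and -3.80 in B6 and -4.22, -4.49, -4.97 and -4.46 in BTBR/R, where no array detected it. Its measured difference was -0.92 (SE 0.20, adjusted p = 0.00774 by limma), and with the BTBR/R arrays taken at their detection limits it was 1.07-fold lower. With a floor at the highest detection limit the difference was -0.08 with an adjusted p of 0.634. With normexp background correction the difference was -0.24 with an adjusted p of 0.0429. The brightest Myh11 probe was at -3.08 to -2.74 in B6 and at -3.19, -2.92, -1.01 and -2.91 in BTBR/R, with replicate 3 far above the rest, and its adjusted p was 0.548. Des (desmin, an intermediate filament) was detected on 3 B6 arrays and 2 BTBR/R arrays, with an adjusted p of 0.498.

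None of the 5 fibroblast genes passed the test by a probe detected on all 8 arrays, although the median difference over 7 such probes, 3 of them of Col1a1, was -0.34, and B6 replicate 3 stood apart. By brightest probe of each gene the median was -0.14, and -0.03 with spike-in scaling. Col1a1 (a chain of type I collagen) read -1.65, -1.68, -0.88 and -1.57 in B6 and -0.35, -1.74, -2.25 and -2.03 in BTBR/R by its brightest probe. B6 replicate 3 and BTBR/R replicate 1 were the high mice, and the difference of -0.14 (SE 0.43) had an adjusted p of 0.818 by limma. The value of BTBR/R replicate 1 was not shared by the next 2 Col1a1 probes, where that mouse was the lowest of all 8, at -2.10 and -2.22. Those 2 probes did not overlap between the strains and differed by -0.43 and -0.49, with adjusted p-values of 0.0830 and 0.0628. B6 replicate 3 was the highest mouse for them too, and for Col1a2, Col3a1 and, among B6 mice, the proteoglycan Dcn. Col1a2 (the other chain of type I collagen) differed by -0.34 (adjusted p = 0.0834), Lum (lumican) by -0.41 (adjusted p = 0.165), Col3a1 by -0.05 and Dcn (decorin) by -0.08. The class mean was 0.12 in B6 replicate 3 and -0.55 to -0.24 in the other 7 mice.

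The basement membrane collagens Col4a1 and Col4a2, which share 1 promoter region on chromosome 8, lay 0.12 and 0.17 higher in BTBR/R, with adjusted p-values of 0.211 and 0.0839. With spike-in scaling both were higher, by 0.23 and 0.28, with adjusted p-values of 0.0492 and 0.0101. Their BTBR/R values were close to each other, at 0.27 to 0.31 and 0.33 to 0.45. In B6, replicate 1 was the highest for both, at 0.34 and 0.36, within the BTBR/R range or above it.

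Other cell types in the dissected tissue were read from the same arrays by the mean of marker lists. The astrocyte list was at 2.52 to 2.64 in B6 and 2.33 to 2.55 in BTBR/R, a difference of -0.17, and the microglia list at 2.36 to 2.41 and 2.16 to 2.30, a difference of -0.14. The microglia gene furthest from 0 was Cx3cr1, which differed by -0.71 at the probe used and by 1.71 at its other probe, while P2ry12 and Tmem119 differed by 0.22 and 0.10. The neuron list differed by -0.02. The oligodendrocyte list was at 4.11 to 4.47 in B6 and 3.90 to 4.16 in BTBR/R, a difference of -0.22. The perivascular macrophage list was at -3.45 to -2.84 and -3.61 to -3.34, a difference of -0.36. Only 2 of its 4 genes were detected on all 8 arrays. Of these, Mrc1 differed by 0.02 (adjusted p = 0.901 by limma) and F13a1 by -0.43 (adjusted p = 0.0282 by limma). Choroid plexus genes varied most, from -1.28 in B6 replicate 4 to 1.05 in B6 replicate 1, and from -0.52 to 0.45 in BTBR/R. Meninges genes were highest in B6 replicate 3, at 0.74, the mouse with the highest fibroblast mean, and lay between 0.43 and 0.58 in the other 7 mice. These values stand beside the vascular differences, and their part in them was not tested.

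**Figure D5:**
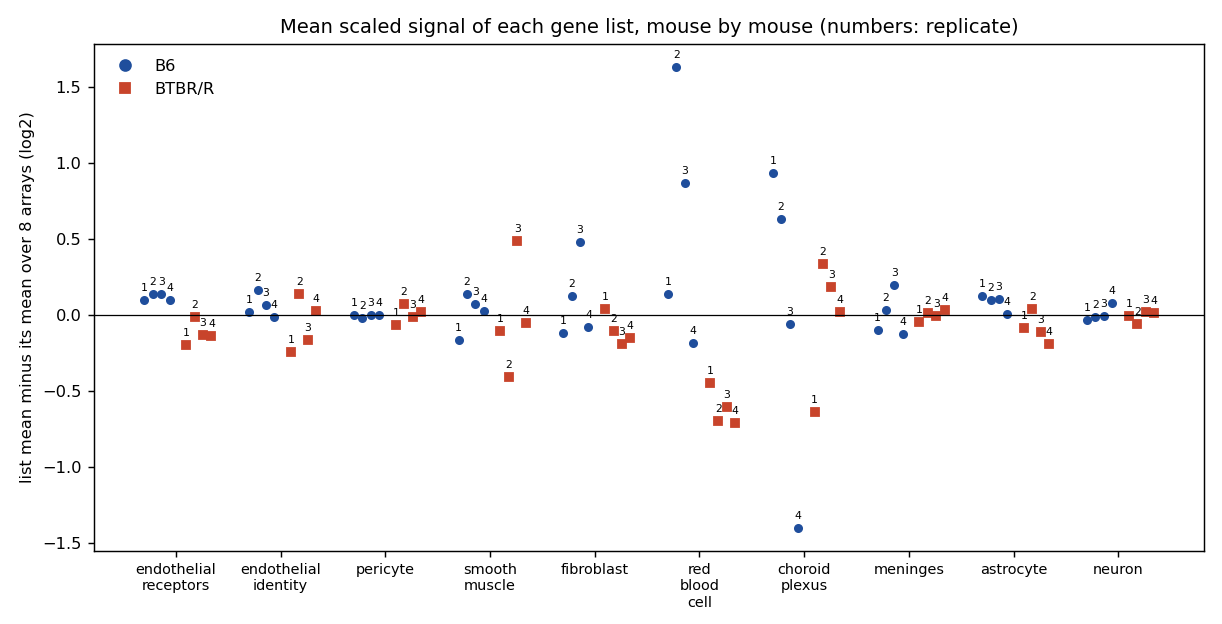
Mean scaled signal (log2) of each gene list in each mouse, minus the mean of that list over the 8 arrays, with the replicate number above each point. Among the lists drawn, the endothelial receptors and the red blood cell genes are higher in every B6 mouse than in any BTBR/R mouse, as are the other pericyte and other vascular matrix lists, which are not drawn. The microglia list, not drawn, is also apart with Cx3cr1 by the probe that fell, but the other Cx3cr1 probe rose by 1.71. The 5 pericyte members overlap, and B6 replicate 3 is the highest mouse for fibroblast and meninges genes.

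The remaining vascular genes, a list of 103 of which 102 were on the array, had about as many higher as lower genes, and its difference from the 40 genes was not tested. By brightest probe, 93 were detected on all 8 arrays, and of these 15 were higher in BTBR/R, 14 were lower and 64 did not pass, with a median difference of -0.03. Their class medians reached from -0.14 for other endothelial identity and for other pericyte genes to 0.09 for other transporters. Over all genes measured by their brightest probe in this way, 13.9% were higher and 14.5% lower. Of the 13 measured genes of the Wnt pathway that maintains the barrier, 4 were higher and 1 was lower. The other tight junction and adhesion genes had 1 higher and 1 lower of 12, the other transporters 3 and 3 of 13, and the other endothelial identity genes 3 and 2 of 13. Other pericyte genes had 0 higher and 1 lower of 7, other smooth muscle genes 0 and 2 of 5, and other vascular matrix genes 3 and 2 of 15. The means of the other pericyte and other vascular matrix lists were lower in every BTBR/R mouse than in any B6 mouse, by -0.11 and -0.10, differences of the size of the shift that spike-in scaling makes. Their medians by brightest probe were -0.14 and -0.01, and -0.02 and 0.11 with spike-in scaling.

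The signalling genes (VEGF, angiopoietin, Notch and PDGF ligands and receptors) had 1 higher and 2 lower of 15, and 2 of their probes detected on all 8 arrays were at least 2-fold lower. Notch1, a Notch receptor, was 2.01-fold lower by its brightest probe, at -0.05 to 0.60 in B6 and -1.04 to -0.61 in BTBR/R, a difference of -1.0 (adjusted p = 0.00167 by limma). Pdgfb, the endothelial ligand of Pdgfrb, was 2.76-fold lower at a dim probe, with a difference of -1.47 (adjusted p = 0.000160 by limma). The bright Pdgfb probe differed by 0.14 with an adjusted p of 0.17, so that the probes of this gene did not move together. Acvrl1 (ALK1, the receptor that signals with endoglin) was lower at a dim probe that 1 BTBR/R array detected (adjusted p = 0.000264 by limma). The fall was 2.12-fold with each BTBR/R array at its detection limit or the probe's own signal, whichever is greater. The bright probe of Acvrl1 differed by -0.91 (adjusted p = 0.00871 by limma), so that both probes fell. Of Cspg4 (the pericyte proteoglycan NG2), a dim probe that no BTBR/R array detected was 2.51-fold lower by the same rule (adjusted p = 0.00987 by limma). Its bright probe differed by -0.14 with an adjusted p of 0.159. A dim probe of Nrp1, a co-receptor for VEGF, differed by -1.27 (adjusted p = 0.0168 by limma) with no fold to be given, and its brightest probe by -0.03 with an adjusted p of 0.634. With normexp background correction the dim probes differed by -0.86 for Pdgfb, -0.51 for Acvrl1 and -1.10 for Cspg4, all still past the threshold, and by -0.16 for Nrp1, which no longer was (adjusted p = 0.415).

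One gene outside that naming rule was picked after its values were seen. Plvap, which forms the diaphragms of fenestrated endothelium and is scarce in mature barrier vessels, lay between 0.41 and 0.53 in B6 and between 1.30 and 1.36 in BTBR/R. Every BTBR/R mouse was above every B6 mouse, with a rise of 0.87 and an adjusted p of 2.7e-05 by limma. The choroid plexus, whose vessels are fenestrated, was at the list means given above, and its part in this rise was not tested.

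Among themselves the vascular probes shared few other features. The 40 genes lay on 17 chromosomes. The median GC content of the probes was 43.3% for the 13 that passed, for the 31 that did not and for all probes detected on all 8 arrays. The median SD between mice over the 44 probes was 0.09 in each strain, against 0.08 in each over all such probes, and the brightest probe of Col1a1 had SDs of 0.38 and 0.86.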

How the data were processed

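RNA of the cerebral cortex and striatum of 4 BTBR/R and 4 B6 mice, grouped by the strain in the labels, was measured on 1-colour Agilent arrays. The authors deposited spot intensities from Agilent Feature Extraction 10.7.3.1, background subtracted, spatially detrended and with the lowest signals replaced by surrogates, and log2 values from GeneSpring, which lay within 0.01 of the log2 processed signal less 1 constant per array for at least 99.97% of probes. Control and outlier spots were left out and spots of a probe averaged, giving 56605 probes. The log2 signals, less each array's 75th percentile (535 to 589 in signal), were compared with limma 3.58.1 in R 4.3.3, with Benjamini-Hochberg adjustment. Calls used an adjusted p below 0.05 with a 2-fold change, or without a fold threshold where stated. The fit was tested on simulated data. Figures used Python 3.11.15 and matplotlib 3.10.9.

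The members and the other gene lists were chosen with earlier results of these data known. All members are named. Each array's values are given for members with a change of at least 1.5-fold, an adjusted p below 0.05 and detection on every array of a strain, for 1 reference gene per class, and for others where they show a spread. Other vascular genes are named at 2-fold. A gene's brightest probe stands for it. Where a strain did not detect a probe on every array, each of its arrays entered the fold with its detection limit or the probe's own signal, whichever is greater. The limit is the dimmest detected signal. Cnn1 read above it on BTBR/R arrays that did not detect the probe, so such a fold is no strict bound. Probe positions are mm9, from the arrays' annotation, and promoters RefSeq's on GRCm38.p6. No genome sequence was used. Probes were designed on the mouse reference, and the effect of sequence differences between the strains on hybridization was not tested. The number of arrays limits the precision. The alternatives were other background corrections, scalings, filters, the methods' t-test, other limma options, a replicate block and leaving out mice.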

Additional observations from a re-analysis of the deposited data

Results flagged for a closer look

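In 5 of 102 groups of 4 mice, 1 mouse lay far from the others by Dixon's test, and chance gives about 1 in 20. B6 replicate 1 was at -2.24 for Tek, with the nearest mouse at -2.09. BTBR/R replicate 2 was at 1.82 for the junction probe of Slco1c1, with the nearest at 1.61, and the rise at that probe held without it. BTBR/R replicate 3 was at -1.01 for the brightest probe of Myh11, with the nearest at -2.91. B6 replicate 1 was at -5.22 for Des, with the nearest at -4.44, both close to the detection limit of the B6 arrays. B6 replicate 3 was at -0.88 for the brightest probe of Col1a1, with the nearest at -1.57.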

How the results depend on the processing

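The 5 vascular probes past both thresholds became 0 with normexp background correction, 2 with quantile normalization, 1 where a strain had to show the probe on each of its arrays, 0 over probes detected on all 8 arrays and 0 with a floor at the highest detection limit. Leaving out 1 mouse gave 4 to 7. The 13 probes with an adjusted p below 0.05 became 21 with limma's trend and robust options, 4 without B6 replicates 2 and 3, and 8 (without BTBR/R replicate 4) to 15 when 1 mouse was left out. The median difference was 0.0039 with spike-in scaling and -0.13 to -0.08 without 1 mouse. With spike-in scaling 11 of the 44 probes changed sign, none of them past the threshold before: those of Cdh5, Vwf, Itm2a, Bsg, Pltp, Nos2, Col3a1 and Dcn, 1 of Flt1, and those of Pecam1 and Pdgfrb. Among the reference genes of the classes, directions turned for Pecam1 (0.033) and Pdgfrb (0.057) with spike-in scaling, and for the brightest probe of Col1a1 with normexp (0.0063), without B6 replicate 3 (0.0436), without BTBR/R replicate 3 (0.0745) or 4 (0.0024) and without B6 replicates 2 and 3 (0.021), while without BTBR/R replicate 1 it was -0.559, these 3 genes being outside the threshold. The cause was not tested.

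With the replicate number as a block, 5 probes passed both thresholds and 9 had an adjusted p below 0.05. The numbers do not pair the mice: the deviations of same-numbered mice correlated by 0.0028, -0.07, -0.04 and 0.16, and only replicate 4 matched its own number best. The higher detection limit of the BTBR/R arrays limits what can be said of dim probes.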
